A study of Mus musculus with 16 samples.

Results

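The late step of airway differentiation in culture was followed by comparing small RNA of wild-type (WT) mouse tracheal epithelial cultures at day 14 with the same kind of culture at day 7. All 293 small RNAs with a value at both days were compared, of 1264 kept from the deposited table, in 4 of the 16 libraries of the series. Primary tracheal epithelial cells were grown on porous membranes, and their upper surface was exposed to air from day 0, the air-liquid interface, which starts the formation of multiciliated cells. The 2 libraries of WT day 7 and the 2 of WT day 14 are replicates 2 and 3 of the labels, which call them independent biological replicates. Beside them stand WT day 4 and p73 knockout (KO) days 7 and 14, with 2 libraries each. WT day 0 and KO days 0 and 4, also with 2 each, enter the shift between days, the model fit and a figure. The WT and KO groups share the tissue, the culture and the exposure to air. The labels give no age, sex or strain of the mice, and each library comes from a mixed culture in which fewer cells of a type and less RNA per cell cannot be told apart. The p73 transcript is not among the small RNAs measured, so the knockout was not checked here.

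A microRNA (miRNA) is a short RNA that guides silencing proteins to messenger RNAs, mainly through its seed, bases 2 to 8 from its 5′ end. The miR-34 and miR-449 families share a seed, and in airway epithelium of mouse and other vertebrates they are known to be needed for the formation of basal bodies and motile cilia. Small nucleolar RNAs (snoRNAs) guide chemical modification of ribosomal RNA, and most take part in the making of ribosomes. They are mostly cut from introns of host genes, among them genes for ribosomal proteins and translation factors.

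The miRNAs that the comparison turns on are shown with the seed in capitals, as given by RefSeq for GRCm38.p6. The first set is the shared seed of the miR-34 and miR-449 guide strands, shown because its members did not all differ in the same direction between the days. miR-34c-5p belongs to this set but had no sequence in the source used. miR-34b-5p is shown although it had a value at day 14 only.
miR-34a-5p: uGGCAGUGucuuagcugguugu
miR-34b-5p: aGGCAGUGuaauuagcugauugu
miR-449a-5p: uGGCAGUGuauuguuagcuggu
miR-449c-5p: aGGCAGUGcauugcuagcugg

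The second set holds the 3p strands of the miR-34b/c locus, which have another seed.
miR-34b-3p: aAUCACUAacuccacugccauc
miR-34c-3p: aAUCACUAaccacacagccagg

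The third set is the miR-25/92 seed, carried by the most abundant miRNA of these cultures, and the fourth is both strands of miR-210.
miR-92b-3p: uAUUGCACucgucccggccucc
miR-92a-3p: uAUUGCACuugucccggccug
miR-25-3p: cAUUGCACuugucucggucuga
miR-210-3p: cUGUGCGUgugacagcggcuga
miR-210-5p: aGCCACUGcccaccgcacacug

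Of the 165 named miRNAs compared, 150 were matched to a mature sequence, with 117 different seeds.

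Values are normalised read counts after 1 shift per day, which makes the days comparable, and log2 differences are day 14 minus day 7 on the log2(value + 1) scale. The 4 libraries held about 432452 to 1777273 reads, recovered from the normalised values, with the deepest and the shallowest both at day 14. The number of reads limits low values: 3 reads correspond to a value of 1.32 in WT day 14 replicate 2 and to 5.14 in replicate 3. Of the 9 rows of the miR-200 family of epithelial cells, 8 had values at both days, miR-205-5p was at 7464 or more, and none of the 18 miRNA rows of mesenchymal, endothelial, blood, muscle, neuronal and liver lists had a value at both days. miR-143-3p, a mesenchymal miRNA, had a value at day 7 only, at 23.4 and 16.3.

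No small RNA passed the threshold between the days. With limma, 0 of 293 (0%) had a Benjamini-Hochberg adjusted p under 0.05, and 15 (5.12%) had an unadjusted p under 0.05, of which 7 (2.39%) were higher and 8 (2.73%) lower at day 14. On the recovered reads, edgeR and limma-voom each called 1 small RNA, the snoRNA Gm26205, and DESeq2 called Gm26205 and miR-34c-5p. With replicate number within genotype as a term, limma also called Gm26205 alone. The labels do not state that these numbers pair the libraries. The libraries of the days did not overlap for 129 small RNAs (44%), of which 63 (21.5%) were all higher and 66 (22.5%) all lower at day 14. The median absolute log2 difference was 0.28 between the day means, each over 2 libraries, and 0.32 between the single day 7 libraries and 0.29 between the single day 14 libraries, so the first is not on the same footing as the others. The 95% interval lay within 1 log2 unit of 0 for 86 small RNAs (29.4%), and its median half-width was 0.87. For the typical small RNA, with 2 libraries a group, a difference below that did not reach an unadjusted p of 0.05 in limma. The adjusted threshold, which no small RNA passed, asks for a larger difference still. A difference of 1 log2 unit or more was seen for 11 (3.75%). In all, 148 (50.5%) had a log2 difference above 0. Between the same days in KO cultures limma, the only tool run there, called 0 (0%), with 9 (3.07%) at an unadjusted p under 0.05, of which 5 (1.71%) were higher and 4 (1.37%) lower.

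**Figure D1:**
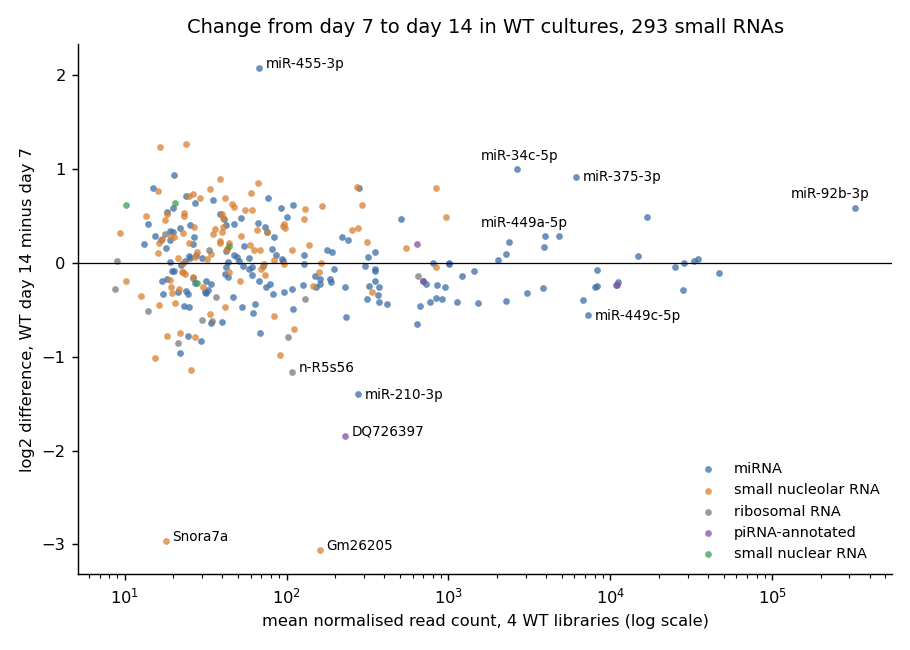
Each point is 1 of the 293 small RNAs, with the mean normalised read count over the 4 WT libraries on a log axis and the log2 difference of day 14 minus day 7 on the vertical axis, coloured by RNA class. Most points lie within 1 log2 unit of 0, the lowest being the snoRNAs Gm26205 at -3.06 and Snora7a at -2.97 and the highest miR-455-3p at 2.07.

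Of the multiciliated cell miRNAs, the miR-34b/c locus stood higher at day 14 while miR-449c-5p stood lower, and none passed the threshold. The list has 9 rows in the table and 6 with values at both days. Of these, 5 had a log2 difference above 0, 4 were higher in both day 14 libraries and 1 was lower in both, against 21.5% and 22.5% of all 293, and the median log2 was 0.58 against 0.01 over all 293. Summed over the 6 rows, the values were 14531.5 and 13887.4 at day 7 and 15204.4 and 13251.1 at day 14. The sums thus overlapped between the days.

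miR-34c-5p is the most abundant product of the miR-34b/c locus (mm10 chromosome 9, 51103076 to 51103098, minus strand, between genes). Its values were 1537 and 1999 at day 7 and 3871 and 3183 at day 14, or 1768 ± 327 and 3527 ± 487 (SD, n = 2). Both day 14 libraries were above both day 7 libraries, with a log2 difference of 1.0 (SE 0.26, 95% interval 0.46 to 1.55, adjusted p = 0.210 in limma). With DESeq2 on recovered reads its adjusted p was 0.0344.

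miR-34b-3p lies nearby on the same strand (51103574 to 51103595). It stood at 157 and 258 at day 7 and at 307 and 398 at day 14, with a log2 difference of 0.80 (SE 0.32, adjusted p = 0.738 in limma), or 0.44 to 1.15 with 1 library left out. The opposite strand of the same hairpin, miR-34b-5p, had no value at day 7 and 44.0 and 25.7 at day 14. miR-34c-3p was at 43.8 and 75.4, then at 88.1 and 99.4, with a log2 difference of 0.69 (95% interval -0.23 to 1.62). All 3 rows of the locus with values at both days, among them both strands of miR-34c, were higher in both day 14 libraries. This compares with 63 of all 293 small RNAs (21.5%). The median log2 of the 3 rows was 0.80.

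miR-34a-5p, from a separate gene on chromosome 4 that is known as a direct p53 target, was at 33.6 and 34.7 and then at 42.7 and 53.1 (log2 0.47, 95% interval -0.56 to 1.5). miR-449a-5p lies in an intron of Cdc20b (chromosome 13, 113037549 to 113037570). Its values were 3853 and 3188 at day 7 and 5118 and 3560 at day 14. The days overlapped, and the log2 difference of 0.28 (95% interval -1.0 to 1.57) was -0.09 without the shift between days.

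miR-449c-5p lies in the same intron (113036008 to 113036028) and differed in the other direction. Its values were 8907 and 8333 at day 7 and 5776 and 5958 at day 14. Both day 14 libraries were below both day 7 libraries, at a log2 difference of -0.55 (SE 0.40, 95% interval -1.40 to 0.29, adjusted p = 0.963 in limma). A predicted miRNA without a name, in the same Cdc20b intron (113037468 to 113037488), was at 12 and 25.5 and then at 29.5 and 29.1, with a log2 difference of 0.71 (95% interval -1.16 to 2.57).

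Of the 5p strands of the list measured at both days, 3 were therefore above 0, with miR-34c-5p the highest, and miR-449c-5p was below it. In KO cultures miR-34c-5p was at 852 and 974.9 at day 7 and at 1076 and 1188 at day 14, a log2 difference of 0.31. The WT change minus the KO change was 0.69 (95% interval -0.08 to 1.46, adjusted p = 0.995 in limma), so the difference was not shown to depend on genotype. miR-449c-5p was also lower at day 14 in KO, from 11205 and 6442 to 4773 and 4693 (log2 -0.84).

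**Figure D2:**
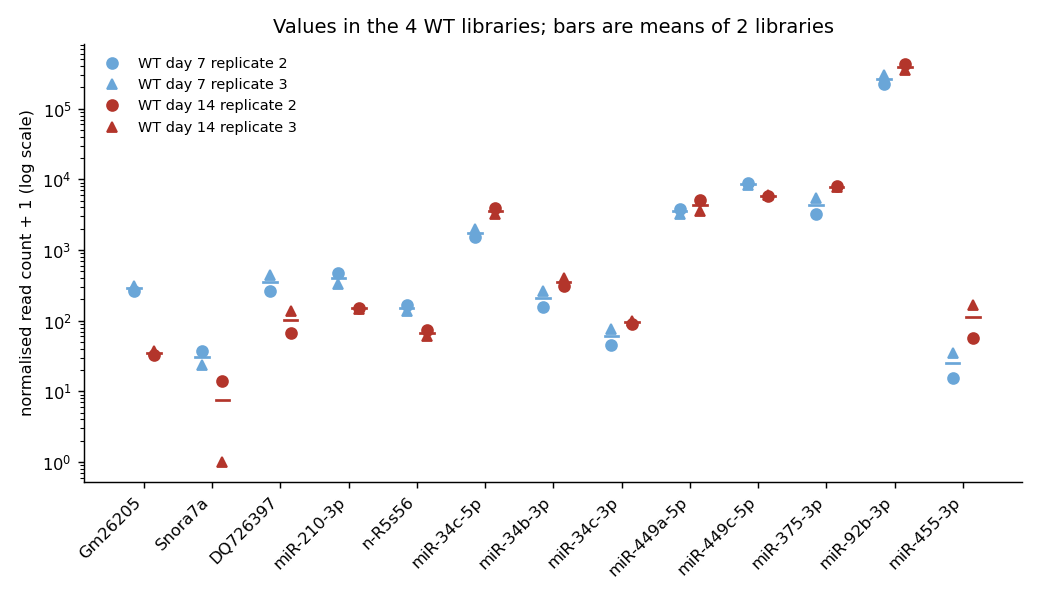
Normalised read count plus 1 on a log axis for 13 small RNAs in the 4 WT libraries, with day 7 in blue, day 14 in red, circles for replicate 2, triangles for replicate 3 and bars for the mean of 2 libraries. The days do not overlap for any of those shown except miR-449a-5p, while over all small RNAs they do not overlap for 129 of 293 (44%). Most of those shown were picked for a small p in this same comparison.

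miR-375-3p, known from secretory and neuroendocrine cells (chromosome 1, 74900661 to 74900682), was at 3207 and 5501 at day 7 and at 7936 and 7871 at day 14. The day 14 libraries lay close together and above both day 7 libraries, which stood further apart. The log2 difference was 0.91 (SE 0.39, 95% interval 0.09 to 1.74, adjusted p = 0.738 in limma), or 0.52 to 1.30 with 1 library left out. In KO cultures it went from 3386 and 3643 to 5404 and 4225 (log2 0.44).

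miR-210, the hypoxia-induced miRNA, was lower at day 14 on both strands. miR-210-3p (chromosome 7, 141221407 to 141221428) was at 476 and 326 at day 7 and at 152 and 146 at day 14, a log2 difference of -1.40 (SE 0.44, 95% interval -2.35 to -0.45, adjusted p = 0.501 in limma). miR-210-5p was at 70.9 and 103 and then at 47.6 and 53.1 (log2 -0.75, adjusted p = 0.934 in limma). Both strands were thus below their day 7 libraries without overlap. In KO cultures the 3p strand was also lower at day 14, with 344 and 122 at day 7 and 107 and 67.0 at day 14 (log2 -1.27), whereas the 5p strand was at 80.0 and 94.9 and then at 113 and 99.1 (log2 0.28). The WT change minus the KO change of the 5p strand was -1.03 with an unadjusted p of 0.056 and an adjusted p of 0.995 in limma.

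The most abundant miRNA, miR-92b-3p (chromosome 3, 89227126 to 89227147), is a member of the miR-25/92 seed family, whose miR-92a is linked to cell proliferation. Its values were 221854 and 302522 at day 7 and 431160 and 350595 at day 14. It held 37.1% and 43.8% of the day 7 libraries and 55.1% and 47.3% of the day 14 libraries. Both day 14 libraries were higher, with a log2 difference of 0.59 (SE 0.40, 95% interval -0.26 to 1.44, adjusted p = 0.963 in limma).

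Its seed partners were close to 0. miR-92a-3p was at 32509 and 35810 and then at 36310 and 33651 (log2 0.03, 95% interval -0.59 to 0.66), and miR-25-3p, which lies within the gene of the replication factor Mcm7, at 672 and 819 and then at 582 and 720 (log2 -0.20). Of the 6 rows of the family's hairpins, either strand counted, 3 were above and 3 below 0. Of the 3 rows that carry the seed, 2 were above and 1 below 0. miR-92b-5p, the other strand of the abundant hairpin, had a log2 difference of 0.49 (95% interval -0.67 to 1.64).

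The other most abundant miRNAs had log2 differences near 0. miR-125a-5p was at 48563 and 48331 and then at 43966 and 46143 (log2 -0.11), miR-191-5p at 34800 and 30214 and then at 31502 and 34452 (log2 0.02), and miR-99b-5p at 28835 and 28177 and then at 24733 and 32841 (log2 0.00). Their 95% intervals reached from -0.96 to 0.75, from -0.66 to 0.70 and from -1.29 to 1.29.

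The smallest p of the comparison was that of Gm26205, a snoRNA annotated within a noncoding exon of Rpl6, the gene of a large-subunit ribosomal protein, on the plus strand of mm10. It is shown because it alone passed a test between steps of the time course. The letters in capitals mark ACA 3 bases before the end, the box that H/ACA snoRNAs carry there. The same letters at that place were found in 15 of 33 matched snoRNAs longer than 100 bases and in 3 of 64 shorter ones. Its region is chr5:121205010-121205143 and its 134 bases are as follows.
Gm26205: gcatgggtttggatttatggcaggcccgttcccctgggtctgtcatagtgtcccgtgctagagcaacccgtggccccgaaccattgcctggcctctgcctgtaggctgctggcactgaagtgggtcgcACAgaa

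Gm26205 was at 265 and 311 at day 7 (441 and 305 reads) and at 31.3 and 36.0 at day 14 (71 and 21 reads), or 288 ± 32.6 and 33.6 ± 3.34 (SD, n = 2). The log2 difference was -3.06 (SE 0.64, 95% interval -4.44 to -1.68), with an adjusted p of 0.0835 in limma. The adjusted p passed 0.05 with 8 of 22 alternative settings, among them edgeR (0.0477) and DESeq2 (6.81e-05). It did not pass with the others, among them limma with TMM factors (0.0831) and limma without a variance trend (0.146). With 1 library left out the log2 difference was -3.17 to -2.94. Reads of this row cannot be told apart from fragments of the overlapping Rpl6 exon, since the counting is not stated to separate them.

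At day 4 the WT libraries held 13.1 and 59.6, below both day 7 libraries, and from day 4 to day 7 it rose by a log2 of 3.30 (adjusted p = 0.0411 in limma), the only call among 293 (0.341%), with 14 (4.78%) at an unadjusted p under 0.05. Day 7 to 14 minus day 4 to 7 gave -6.36 (SE 1.12, adjusted p = 0.0142 in limma), also the only call (0.341%), with 12 (4.1%) at an unadjusted p under 0.05. These steps share the day 7 libraries, so a high value at day 7 enters both. The WT day 4 libraries, at 13.1 and 59.6, were not left out in turn, so the dependence on either was not checked. Without WT day 7 replicate 2 that difference of steps had an adjusted p of 0.247, without replicate 3 of 0.261, and without WT day 14 replicate 2 of 0.0606, at log2 values of -6.59, -6.13 and -6.26.

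In KO cultures Gm26205 was at 22.1 and 55.5 at day 7 and at 15.4 and 27.7 at day 14, so the KO days overlapped (log2 -0.74). The WT change minus the KO change was -2.32 (95% interval -4.27 to -0.37, unadjusted p = 0.0227, adjusted p = 0.995 in limma). Of 293 small RNAs, 0 (0%) passed for that difference of changes and 4 (1.37%) had an unadjusted p under 0.05. edgeR and limma-voom called 0 as well, and DESeq2 called 1, DQ726397.

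**Figure D3:**
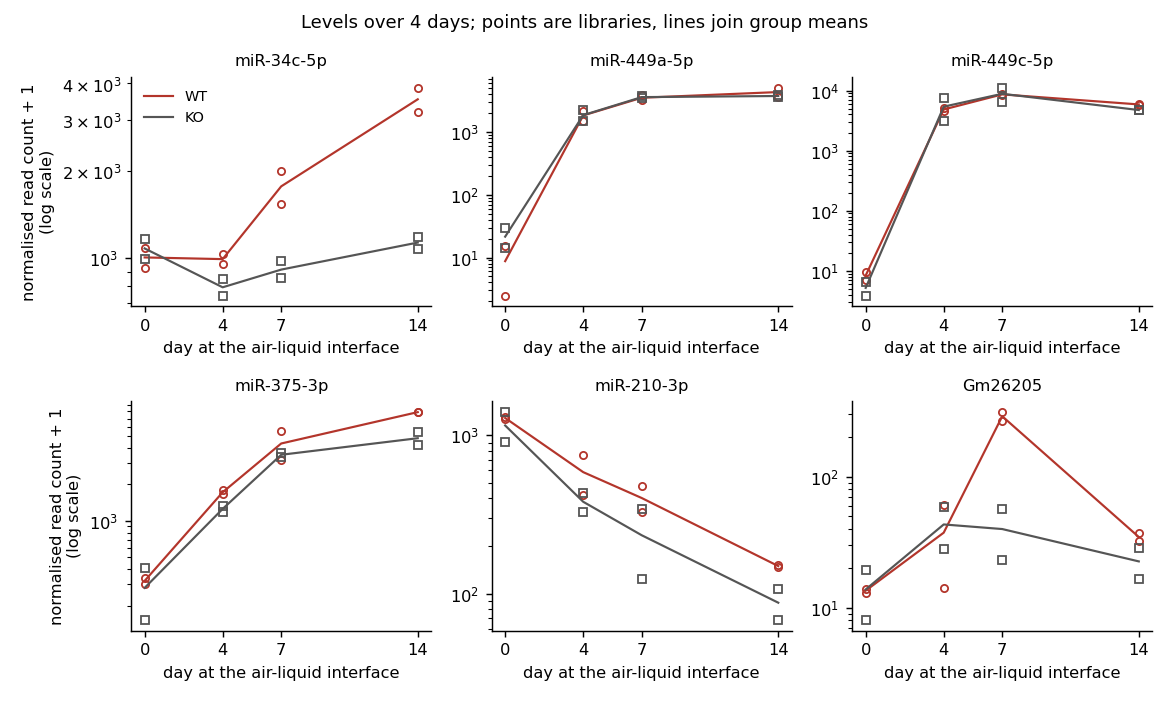
Normalised read count plus 1 on log axes at days 0, 4, 7 and 14 for 6 small RNAs, WT in red and KO in grey, with libraries as points and lines through the means of 2 libraries. WT Gm26205 is highest at day 7, miR-34c-5p and miR-375-3p are highest at day 14 in WT, and miR-449c-5p is highest at day 7.

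Small nucleolar RNAs stood higher at day 14 more often than lower. Of 105 with values at both days, 69 were above and 36 below 0, with a median log2 of 0.21, and 34 were all higher and 16 all lower in the day 14 libraries, against 21.5% and 22.5% of all 293. None passed in limma. Without the shift between days this median was -0.16 and with library totals -0.03, while all 293 small RNAs then had medians of -0.36 and -0.23, so against all small RNAs the snoRNAs stood 0.20 higher in each case. Those of 100 bases or less, the size of C/D box guides of 2′-O-methylation, were above 0 in 46 of 64 cases, with a median of 0.30. Longer ones, the size of H/ACA guides of pseudouridylation, were above 0 in 16 of 33, with a median of -0.01, and the difference between the lengths was not tested.

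Among snoRNAs in genes of ribosomal proteins or Eef2, 19 of 26 were above 0 and the median was 0.35 (-0.02 without the shift). Snord99, hosted by Snhg12, was at 411 and 875 and then at 966 and 1118 (log2 0.79, adjusted p = 0.738 in limma), or 0.25 to 1.33 with 1 library left out. Gm24134, in Rpl7a, was at 38.4 and 57.1 and then at 83.3 and 87.4 (log2 0.85, adjusted p = 0.738 in limma). Snord110, in an intron of Nop56, itself a protein of the C/D particle, was at 39.6 and 49.95 and then at 68.3 and 82.3 (log2 0.74). Each of these was higher in both day 14 libraries.

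Snord21 in Rpl5 (log2 0.78), Snord42a in Rpl23a (1.26) and Snord70 in Nop58 (1.24) were higher in both day 14 libraries at lower values, between 4.20 and 48.0. For these the 95% intervals included 0, and leaving out 1 library moved Snord42a between 0.65 and 1.87 and Snord70 between 0.33 and 2.15.

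Members in the other direction were Snora7a, Gm25894, Snord2 and Snord69. Snora7a, within a UTR exon of Rpl32, was at 36.0 and 22.4 and then at 13.2 and 0. Its log2 difference of -2.97 (SE 1.02, adjusted p = 0.580 in limma) rested on the library at 0: it was -1.05 without WT day 14 replicate 3, and -4.88 without replicate 2, when it passed with an adjusted p of 0.0437. Gm25894, in Snhg1, was at 142 and 102 and then at 60.8 and 60.0 (log2 -0.98, adjusted p = 0.635 in limma). Snord2 in Eif4a2 (log2 -1.14) and Snord69 in Gnl3 (log2 -0.80) were at 33.6 to 36.0 at day 7 and at 10.3 to 22.5 at day 14. Of 15 snoRNAs in Gas5 or Snhg1, noncoding genes that host many of them, 9 were above 0 with a median of 0.14, which was -0.23 without the shift and -0.10 with library totals.

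Ribosomal RNA rows stood lower. Of 13, 10 were below 0 and 8 were lower in both day 14 libraries, against 22.5% of all 293, with a median log2 of -0.39, below 0 with each scaling tried. n-R5s56, a copy of 5S ribosomal RNA, was at 166 and 135 and then at 72.7 and 60.0 (log2 -1.17, SE 0.37, adjusted p = 0.501 in limma). The 5S copies are nearly identical, so the split of reads among them is uncertain. Of 9 of these copies, 8 were below 0, and the most abundant, n-R5s2, was at 610 and 759 and then at 694 and 545 (log2 -0.15).

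Of 4 rows annotated as piRNAs, germline small RNAs whose annotation can overlap fragments of other RNAs, 3 were below 0. DQ726397, on the X chromosome, was at 266 and 448 at day 7 and at 66.5 and 137 at day 14 (log2 -1.84, SE 0.64, adjusted p = 0.580 in limma). In KO it was at 157 and 140 and then at 638 and 165 (log2 1.13), with 1 of the KO day 14 libraries far above the other. The WT change minus the KO change was -2.97 (95% interval -4.91 to -1.04, adjusted p = 0.995 in limma, and past 0.05 with DESeq2). Of 4 small nuclear RNA rows 3 were above 0.

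As shares of a library, miRNAs went from 96.4% and 96.1% to 97.2% and 96.8%, and ribosomal RNAs from 0.214% and 0.207% to 0.148% and 0.134%. piRNA rows went from 2.00% and 2.21% to 1.32% and 1.70%, and snoRNAs from 1.41% and 1.43% to 1.35% and 1.37%. Small nuclear RNAs went from 0.0161% and 0.0155% to 0.0154% and 0.0134%. None of these classes overlapped between the days, while 129 of 293 single small RNAs (44%) did not overlap either. The shares of a library add up to a whole, so the classes are not independent. In an exact two-sided permutation test each gave p = 0.333, the smallest that 2 libraries against 2 allow. Without miR-92b-3p in the total the snoRNA share was 0.415 percentage points higher at day 14 instead of the difference of -0.0573 in the full total.

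**Figure D4:**
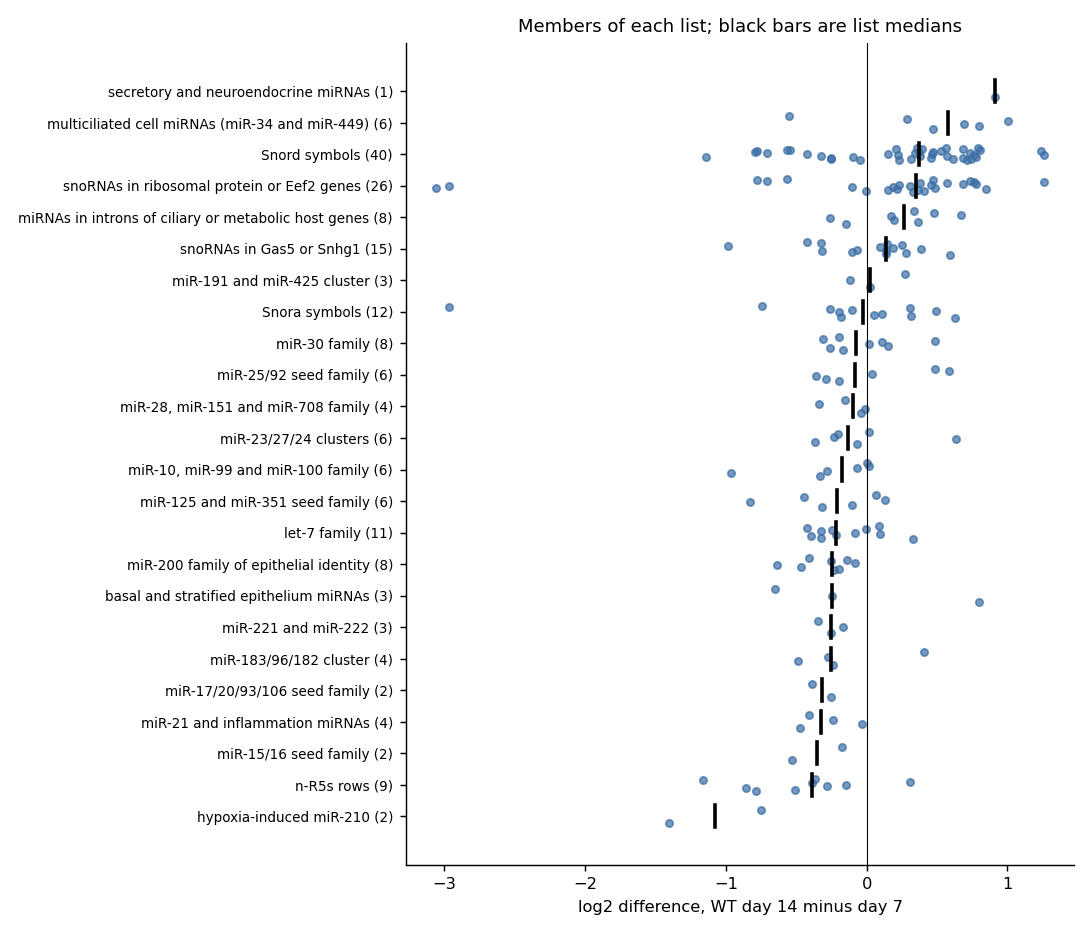
Log2 difference of day 14 minus day 7 for the members of each list with values at both days, 1 point for each member and a black bar for the list median, with the number of members in parentheses. The multiciliated list and the Snord symbols lie mostly to the right of 0, and the miR-200, let-7 and n-R5s lists mostly to the left.

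The epithelial identity miRNAs of the miR-200 family, which hold back mesenchymal genes, were all 8 below 0, and 5 were lower in both day 14 libraries, against 22.5% of all 293, with a median log2 of -0.24. With upper-quartile factors, which moved the median of all 293 small RNAs to 0.14, 2 of the 8 were above 0. miR-429-3p was at 2662 and 2541 and then at 1874 and 2053 (log2 -0.41, 95% interval -1.51 to 0.69). miR-200a-3p was at 945 and 618 and then at 578 and 530 (log2 -0.46). miR-200c-3p, from the other locus of the family, was at 1357 and 1177 and then at 1155 and 1142 (log2 -0.14). The 5 rows of the miR-200b/200a/429 locus had a median of -0.41 and the 3 of the miR-141/200c locus -0.20.

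Basal and stratified epithelium miRNAs were mixed. miR-31-5p, linked to stratified epithelium, was at 949 and 607 and then at 599 and 389 (log2 -0.65, SE 0.35, adjusted p = 0.963 in limma). miR-205-5p, a basal cell miRNA, was at 10569 and 7464 and then at 7518 and 7471 (log2 -0.25, and 0.01 without WT day 7 replicate 2). miR-203-3p, which limits the proliferation of keratinocyte precursors, was at 17.4 and 5.10 and then at 25.1 and 12 (log2 0.80, 95% interval -0.69 to 2.28, and 0.0003 to 1.59 with 1 library left out).

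The let-7 family, known from terminal differentiation, had 8 of 11 members below 0 and a median of -0.22. Over all 167 miRNA rows, predicted ones included, 95 were below 0 and the median was -0.05. With upper-quartile factors or a shift from miRNA rows, 5 of the 11 let-7 members were above 0. let-7b-5p was at 7521 and 7858 and then at 5531 and 6148 (log2 -0.40), and let-7i-5p at 1630 and 1859 and then at 1309 and 1280 (log2 -0.43). Neither overlapped between the days. miR-21a-5p, of the list of inflammation miRNAs, was at 1383 and 1168 and then at 1151 and 792 (log2 -0.41), and all 4 members of that list were below 0, or 3 with upper-quartile factors.

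Of the 6 rows from miR-125 and miR-351 hairpins, either strand counted, 4 were below 0. Of the 3 rows that carry the shared seed, 2 were below 0. miR-125b-1-3p, which has another seed, was at 39.6 and 36.7 and then at 23.3 and 18.9 (log2 -0.83, SE 0.33, adjusted p = 0.738 in limma). miR-125b-5p (log2 -0.44) and miR-125a-3p (-0.31) were also lower in both day 14 libraries, while miR-351-5p (0.07) and miR-125b-2-3p (0.13) overlapped, and both of these were below 0 without the shift between days. The medians of the miR-200, let-7, inflammation and miR-125 lists stayed below 0 with each scaling tried.

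A list of intronic miRNAs (miR-140, miR-152, miR-26b, miR-378a and miR-872) had 6 of 8 rows above 0. Its median was 0.27, and -0.08 without the shift. Host genes with a ciliary or metabolic role are given here for miR-872 and miR-378a only, so the count does not describe such host genes. miR-872-3p, in the intraflagellar transport gene Ift74, was at 47.5 and 37.7 and then at 81.9 and 42.9 (log2 0.48). miR-378a-5p, in Ppargc1b, which promotes mitochondrial biogenesis, was at 22.8 and 30.6 and then at 33.0 and 54.9 (log2 0.67).

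Other miRNA families had medians between -0.36 and 0.02. miR-15a-5p (log2 -0.53) and miR-15b-5p (-0.18), which are known to restrain the cell cycle, were the 2 measured of their family. miR-93-5p (-0.39) and miR-106b-3p (-0.25), from the cluster in Mcm7, were lower in both day 14 libraries. The 3 rows of miR-221 and miR-222 were below 0 with a median of -0.25, as were 3 of 4 rows of the cluster of miR-183, miR-96 and miR-182, known from sensory cells, with a median of -0.26. Of the miR-10, miR-99 and miR-100 family 5 of 6 were below 0, led by miR-10a-3p at 31.2 and 27.5 and then at 13.7 and 15.4 (log2 -0.97, 95% interval -2.07 to 0.14). The miR-30 family had 4 of 8 below 0, the miR-23/27/24 clusters 4 of 6, the miR-28, miR-151 and miR-708 family 4 of 4 and the miR-191 and miR-425 cluster 1 of 3. The medians of these 4 groups changed sign with at least 1 scaling.

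miR-455-3p lies in an intron of the cartilage collagen gene Col27a1 and had the largest positive difference. Its values were 14.4 and 33.6 at day 7 and 55.5 and 166 at day 14, so the days did not overlap although the day 14 libraries differed widely. The log2 difference was 2.07 (SE 0.87, 95% interval 0.22 to 3.93, adjusted p = 0.738 in limma), or 1.29 to 2.86 with 1 library left out. In KO it was at 29.8 and 2.15 and then at 12.9 and 2.68.

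Both strands of 34 hairpins were measured. They were both higher at day 14 in 7, both lower in 17 and in opposite directions in 10, with a median absolute difference between strands of 0.18 on the log2 scale. The strands of a hairpin share a precursor but not their depth. The 5p strand differed more than the 3p strand for miR-34c (1.0 and 0.69) and less for miR-210 (-0.75 and -1.40) and miR-10a (-0.29 and -0.97). Loci with several measured rows all on the same side of 0 were miR-34b/c above it, and miR-200b/200a/429, miR-141/200c, miR-221/222 and the cluster of miR-25, miR-93 and miR-106b below it, all with the shift between days used throughout.

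**Figure D5:**
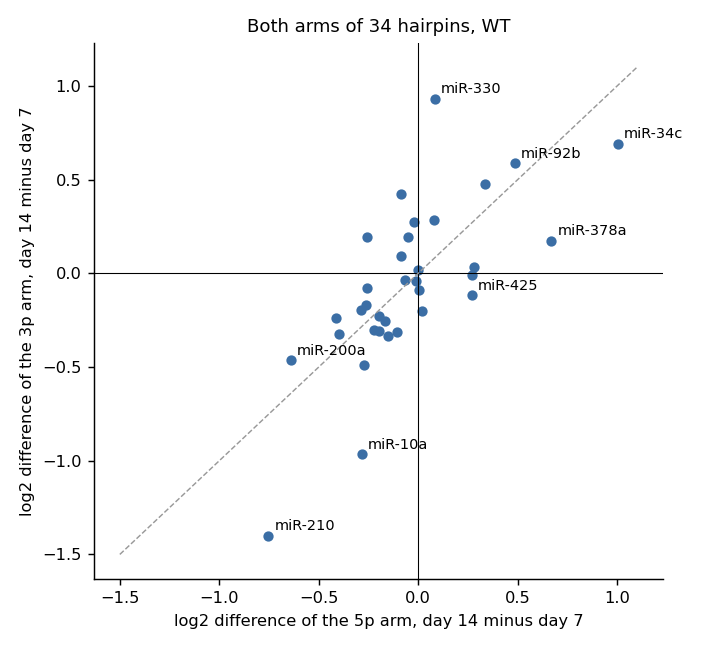
Log2 difference of day 14 minus day 7 for the 5p strand (horizontal axis) and the 3p strand (vertical axis) of each of 34 hairpins in WT, with equal changes along the dashed line. miR-34c and miR-92b lie above 0 on both axes and miR-210 below 0 on both.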

How the data were processed

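The values deposited by the authors are a normalised signal, although the heading says counts: each is a whole number of reads divided by 1 factor per library, set separately for each day. The step of 1 read is less certain at days 7 and 14, where low rows are blank. Per the submitters' processing notes mm10 and DESeq2 were used. The sources used here do not name the aligner or the counting tool. The labels name a kit for RNA libraries, and its size selection is not stated.

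Here 5 predicted rows that repeat a named miRNA were left out, and each day was shifted by the mean over its libraries of the median log2 ratio over 287 rows above 0 in all 16 libraries, which added 0.3725 to day 14 minus day 7. All 293 rows passed the filter of a value of at least 10 in 2 of the 4 libraries of each day. Since the values are not counts, limma 3.58.1 with a variance trend in R 4.3.3 was used on log2(value + 1), with 16 libraries in 8 groups, and adjusted p are Benjamini-Hochberg values over 293 rows (threshold 0.05). edgeR 4.0.16, limma-voom and DESeq2 1.42.0 were run on the recovered reads as alternatives. The test was tried on simulated data that gave each row the same dispersion. That trial does not show how the test does with rows of unlike spread, and no result here rests on it. Rows absent at a day are blank there, so no fold is given for them. Reads after PCR, with no molecular identifiers, are not independent molecules, so floors of 3 reads cover counting error only.

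Named small RNAs are the 10 with the smallest p in each direction where none passed, the 5 most abundant, the members of the multiciliated, secretory, basal, miR-210, miR-25/92 and miR-125 lists, and examples with the largest change of other lists. miR-200c-3p, n-R5s2 and the predicted row in Cdc20b were chosen after their values were seen. The members and lists were chosen with earlier results of these data known. Host genes come from GENCODE vM21.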

Additional observations from a re-analysis of the deposited data

Results flagged for a closer look

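Gm26205 differed between the steps of the WT time course: its change from day 7 to day 14 minus its change from day 4 to day 7 was -6.36 on the log2 scale, and both steps share the day 7 libraries. Its call was lost without either day 7 library and without WT day 14 replicate 2. Some small RNAs of the lists had a value at 1 day only and stood outside the comparison. miR-34b-5p, a strand of the miR-34b/c locus, had a mean of 34.9 at day 14 and none at day 7. With a value at day 7 only were miR-106b-5p (17.6), miR-17-5p (17.1) and miR-17-3p (15.8) of the proliferation-linked miR-17 family and its clusters, miR-30b-3p (18.8), the mesenchymal miR-143-3p (19.9) and the imprinted miR-127-3p (13.6). The rows present at a day had means over its 4 libraries, as deposited, of at least 16.4 at day 7 and 14.97 at day 14, so a blank may stand for a value below these.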

How the results depend on the processing

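Over 40 named small RNAs and 23 alternative settings, 865 of 906 values kept their direction and side of the threshold. Between WT day 14 and day 7, 1 small RNA passed instead of 0 with an adjusted p under 0.1, no shift, library totals, a pseudocount of 10, the 4 WT libraries alone, edgeR or limma-voom, and 2 with DESeq2. Leaving out 1 library gave 0 to 1. The labels do not state that the replicate numbers pair the libraries, and there are 2 numbers only. The difference between replicates correlated at r = 0.22 between WT day 7 and day 14. It correlated at 0.0765 to 0.263 over the 6 pairs of WT days and at 0.304 to 0.461 over those of KO days. All of these were above 0, while pairs of a WT and a KO day ran from -0.306 to 0.112. Whether libraries of the same number share a source was not tested. With replicate number as a block, 1 passed (Gm26205, adjusted p = 0.00176). The WT minus KO change had 1 call with DESeq2. For the difference of steps, a minimum value of 50 left 148 rows and gave 0 calls, but that filter removed Gm26205, so it could not be called. Without 1 WT library of day 7 or day 14 the difference of steps of Gm26205 was -6.59 to -6.13. No day 4 library was left out in turn. Between WT day 14 and day 7, Gm26205 held -2.77 to -3.43 in the 8 settings that called it. Snora7a was at -3.07 with a shift from the 4 WT libraries and at -3.47 with a pseudocount of 0.5, below Gm26205 at -3.05 and -3.08.

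Changes of sign, on the log2 scale, were as follows. No shift gave -0.34 for miR-92a-3p, -0.35 for miR-191-5p, -0.088 for miR-449a-5p, -0.23 for miR-125b-2-3p and -0.29 for miR-351-5p, and library totals -0.21, -0.22, -0.11 and -0.16 for these without miR-449a-5p. Upper-quartile factors and a shift from miRNA rows gave 0.035 and 0.024 for miR-125a-5p and 0.14 and 0.13 for miR-99b-5p, which was also at 0.011 with a shift from the 4 WT libraries, 0.014 with edgeR and with DESeq2 and 0.0046 with limma-voom. limma-voom gave -0.079 for miR-351-5p. Leaving out 1 library gave -0.035 to 0.10 for miR-92a-3p, -0.079 to 0.12 for miR-191-5p, -0.20 to 0.20 for miR-99b-5p, -0.50 to 0.0058 for miR-205-5p, -0.68 to 0.10 for miR-25-5p, -0.78 to 0.056 for miR-92a-1-5p, -0.18 to 0.44 for miR-125b-2-3p and -0.21 to 0.35 for miR-351-5p. Without miR-92b-3p in the total the snoRNA share was 0.415 and the small nuclear RNA share 0.00327 percentage points higher at day 14. The cause of these changes was not tested. A shift from the 4 WT libraries was not run for the difference of steps.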
